A study of Mus musculus with 6 samples.

Results

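Chemokines are small secreted proteins that guide migrating cells. The 8 described here are chemokines of skin and hair follicle: Cxcl1, Cxcl10, Cxcl12 and Cxcl14 of the CXC family, named for a spacer between their first cysteines, and Ccl2, Ccl7, Ccl8 and Ccl20 of the CC family, in which these cysteines are adjacent. They were taken by name, as every probe set whose platform annotation gives 1 of these symbols, and made up 13 probe sets of 8 genes among 18194 genes on the array. RNA came from mouse hair follicle bulbs at postnatal day 9, hybridised to 6 one-colour arrays. The emN1 bulbs (2 arrays) came from skin where Notch1 had been removed in the embryo and had no working Notch1. The anN1 bulbs (2 arrays) came from an area deleted only in anagen, the growth phase, and still had working Notch1, and wild-type bulbs (2 arrays) carried neither deletion by their labels. The design text names both anN1 and wild-type as controls and says that the arrays were run in 2 sets, the first with 1 emN1 and 1 anN1 array and the second with the other 4. The labels name neither the Cre driver nor the allele, nor whether animals were pooled. They call the replicates biological. The p-values reflect only the spread between these samples, which limma moved, for each probe set, towards that of probe sets of similar brightness.

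In skin, inflammatory chemokines such as Ccl2, Ccl7, Ccl20, Cxcl1 and Cxcl10 are low at rest and are induced in keratinocytes, fibroblasts and leukocytes by cytokines, through NF-kappaB or interferon signalling. Homeostatic chemokines such as Cxcl12 and Cxcl14 are made steadily, Cxcl12 by fibroblasts and vessels and Cxcl14 by epithelium. Ligands act through G protein-coupled receptors on the responding cell, and atypical receptors take them up without that signal.

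The promoters of the 4 genes whose signals were bright enough to test are shown because 3 of them were called higher in emN1 on their brightest probe set. RefSeq's table (GRCm38.p6) held 6 of the 8 genes. Each sequence is the 250 bases before the gene's start, in the direction of transcription, for Ccl8 chr11:82114935-82115184 (plus strand), Cxcl12 chr6:117168285-117168534 (plus), Cxcl14 chr13:56296552-56296801 (minus) and Cxcl1 chr5:90890995-90891244 (plus). Capitals mark matches to 1 of 4 motifs, each searched on both strands: an NF-kappaB motif (GGGA and TTTCC, 1 base apart), the core bound by Rbpj, the DNA-binding partner of Notch (TGGGAA), an interferon response motif (GAAA at both ends of a 2-base gap) and a TATA box (TATAAA). No matches overlapped.
Ccl8: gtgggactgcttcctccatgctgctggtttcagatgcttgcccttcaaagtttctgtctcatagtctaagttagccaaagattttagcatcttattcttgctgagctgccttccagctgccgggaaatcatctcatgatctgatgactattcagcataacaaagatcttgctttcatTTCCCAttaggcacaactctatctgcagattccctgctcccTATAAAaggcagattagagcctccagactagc
Cxcl12: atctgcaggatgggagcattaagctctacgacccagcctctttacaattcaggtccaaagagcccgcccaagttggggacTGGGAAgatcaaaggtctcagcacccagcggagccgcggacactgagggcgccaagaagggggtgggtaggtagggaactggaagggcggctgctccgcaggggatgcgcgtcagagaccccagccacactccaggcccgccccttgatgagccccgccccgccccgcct
Cxcl14: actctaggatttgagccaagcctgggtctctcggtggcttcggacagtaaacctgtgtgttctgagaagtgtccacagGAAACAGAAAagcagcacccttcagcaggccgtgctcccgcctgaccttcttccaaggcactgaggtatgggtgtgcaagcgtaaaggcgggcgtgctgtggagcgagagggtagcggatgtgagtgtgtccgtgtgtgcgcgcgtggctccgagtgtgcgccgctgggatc
Cxcl1: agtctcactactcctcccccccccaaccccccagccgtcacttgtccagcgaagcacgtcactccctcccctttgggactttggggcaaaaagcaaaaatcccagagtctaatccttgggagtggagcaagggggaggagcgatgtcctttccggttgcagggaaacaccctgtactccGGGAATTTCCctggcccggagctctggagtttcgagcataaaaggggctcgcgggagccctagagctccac

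Cxcl1 held the NF-kappaB letters 71 bases before its start, which 0.356% of 32841 promoters of this length held. Ccl8 held the Rbpj core on the reverse strand 73 bases before its start and a TATA box at 32, and Cxcl12 held the Rbpj core at 170. That core was in 21.6% of promoters and the TATA letters in 12.4%. Cxcl14 held the interferon letters at 172, as 2.98% of promoters did. Among the promoters not shown, that of Ccl20, which was under background on all arrays, held the Rbpj core on the reverse strand at 43. That of Cxcl10, which was too dim to test, held the interferon letters at 213. No motif was in all 3 genes called higher, and a match is a description of letters, not a bound site.

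Signals are the authors' MAS5 values per probe set on a linear scale, with the same trimmed mean, 1500, on every array. Differences are on the scale log2(signal + 17.8), which understates changes of dim genes, with array set as a term. The first set holds only emN1 replicate 1 and anN1 replicate 1. Leaving out either therefore removes the same comparison within that set and gives the same difference between emN1 and controls. Below, these leave-outs are the same check and do not point at either array by itself. A signal was read as background under 84.3, the 95th percentile of 6 bacterial control probe sets. These were taken as not spiked in by their low median signal. Arrays of the first set had a lower ratio of 5′ to 3′ beta-actin signal (0.177 and 0.218) than those of the second (0.370 to 0.419), and brighter 18S ribosomal RNA. The Notch1 signal of the brighter probe set was 6498 and 6292 in emN1, 15077 and 12527 in anN1, and 23750 and 34070 in wild-type. Between anN1 and wild-type this probe set differed by -1.13 log2 units (SE 0.20) without passing (limma adjusted p = 0.289). The dimmer differed by -0.19 (SE 0.22). As a check of the labelled tissue, 11 genes listed as hair matrix and shaft precursor markers were summed. The sum lay between 276260 and 293930 on every array, and none of them was under background on all arrays. It rests largely on Krt71 and Tchh, which are inner root sheath genes, and on the hair keratin Krt35 (mean signals 102350, 47395 and 55042). The listed genes did not all run level: the emN1 mean was 0.703 times that of controls for Krt35, 0.705 times for Lef1 and 1.20 times for Krt71. Each of these had both emN1 arrays outside the control range, so the level sum does not show that each part of the tissue was level. Of the 27022 probe sets bright enough to test, 1020 passed between emN1 and controls (limma, Benjamini-Hochberg adjusted p under 0.05). Brightness was the mean log2 signal over all 6 arrays, so a gene dim in controls could enter through its emN1 signals.

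Of the 4 chemokines bright enough to test, 3 were called higher in emN1 on their brightest probe set, Ccl8, Cxcl12 and Cxcl14, and none lower. The second tested probe set of Cxcl14 did not pass, nor did Cxcl14 with its tested probe sets averaged. The remaining testable gene, Cxcl1, did not pass, and Cxcl10, Ccl2, Ccl7 and Ccl20 were too dim to test. Of 12611 genes tested, 3.59% were called higher and 1.84% lower in emN1. An unadjusted limma p under 0.05 was reached by 2612 of these genes, the background for the unadjusted counts between emN1 and controls given below. By probe set, 4 of the 7 tested were called higher, against 2.41% of all probe sets tested. The same 4 passed against anN1 alone, where 1.35% of probe sets were called higher, and 2 of them against wild-type alone, where 1.53% were; all 3 comparisons share the emN1 arrays. The median log2 difference of the 4 tested chemokines was 1.15, against -0.02 over all genes tested. Only 7 of the 13 probe sets passed the filter on dim signals, so neither the count nor the median describes all 8 genes. The 8 were also chosen with earlier results of these data known. The counts and the median therefore describe these genes and are no test of them as a set. In bulk RNA of this kind, more cells of a type and more RNA per cell cannot be told apart.

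**Figure D1:**
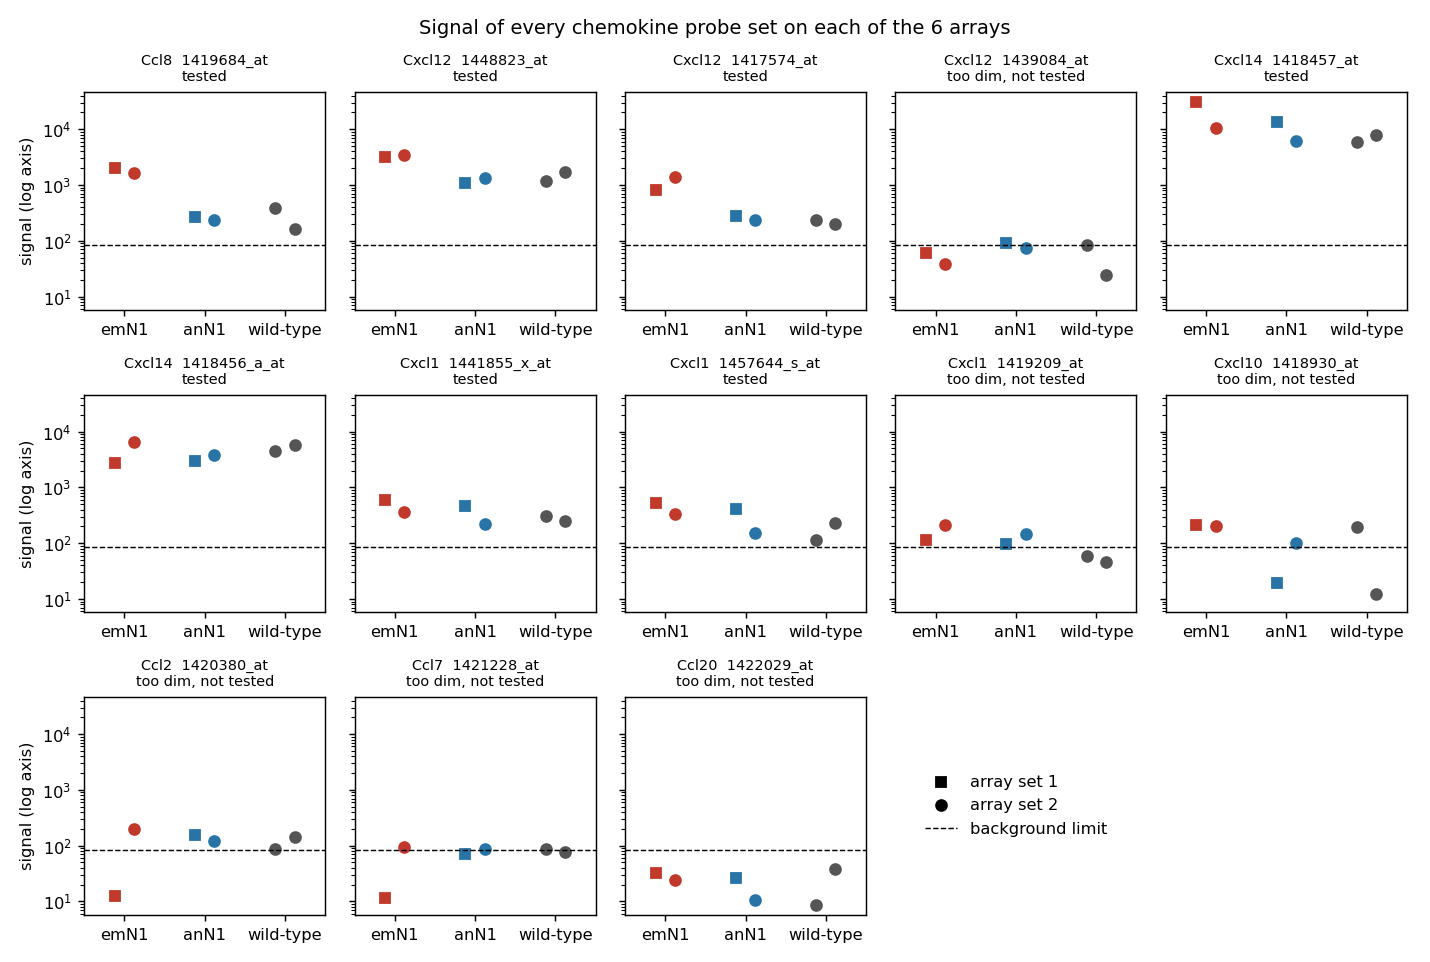
Signal of each of the 13 chemokine probe sets (log axis, MAS5 signal units) on the 6 arrays, by group. Squares are arrays of the first set, circles those of the second, and the dashed line is the background limit of 84.3. Ccl8 and the 2 tested Cxcl12 probe sets have both emN1 arrays above all 4 controls, while Ccl20 lies under the limit on every array.

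Ccl8, a CC chemokine that attracts monocytes and lymphocytes, was the most changed. Its signal was 2052 and 1625 in emN1, against 263 and 236 in anN1 bulbs and 381 and 161 in wild-type bulbs. Both emN1 arrays lay far above every control, and the spread of the controls (SD 91.2, n = 4) was small beside the gap. The emN1 mean was 7.06 times the control mean. Ccl8 rose by 2.74 log2 units (SE 0.35; 2 against 4 arrays), with a limma adjusted p of 0.00560. It was higher within both array sets, by 2.88 against anN1 in the first and by 2.69 against anN1 and 2.62 against the wild-type mean in the second. In the fit with 3 groups it passed against anN1 (2.79, SE 0.42, limma adjusted p = 0.0237) and against wild-type (2.67, SE 0.47, adjusted p = 0.0380).  Against all controls Ccl8 no longer passed when anN1 replicate 1 was left out (adjusted p = 0.0832), nor when emN1 replicate 1 (0.0977) or emN1 replicate 2 (0.134) was, nor without the intensity trend of the variance (0.0587).

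By gene order in the annotation (GRCm38.p6) Ccl8 lies in a run of chemokine genes on chromosome 11, after Ccl2, Ccl7, Ccl11 and Ccl12. These neighbours were dim. Ccl2, a monocyte attractant, gave 12.5 and 197 in emN1, 155 and 122 in anN1 and, in the wild-type, 88.5 and 145. The emN1 arrays were the lowest and the highest of the 6, so the groups overlap. Ccl7, a related monocyte attractant, gave 11.4 and 92.9 in emN1 against 71.5 to 88.0 in the 4 controls, again with emN1 at both ends. For Ccl2 and Ccl7 emN1 replicate 1 was under background and emN1 replicate 2 above it, for Ccl7 only just. By a higher limit of 112, from 20 bacterial control probe sets, Ccl7 was under background on all 6 arrays. Ccl12, outside the 8, gave 163 and 128 in emN1 against 14.9 to 96.2 in controls. Without the filter on dim signals none of the 3 passed: Ccl2 at -0.60 (SE 0.73), Ccl7 at -0.57 (SE 0.59) and Ccl12 at 1.12, with limma adjusted p of 0.820, 0.779 and 0.548.

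Cxcl12, the ligand of the receptor Cxcr4 and of the scavenger Ackr3, rose on both of its bright probe sets. The brighter gave 3159 and 3515 in emN1, 1076 and 1340 in anN1 and, in the wild-type, 1155 and 1731. The dimmer gave 827 and 1406 in emN1, 279 and 232 in anN1, and 236 and 199 in wild-type bulbs. On neither did a control reach an emN1 array. The brighter rose by 1.41 log2 units (SE 0.20) and the dimmer by 2.15 (SE 0.32), with limma adjusted p of 0.00784 and 0.0101. The remaining probe set was under background on 5 of 6 arrays, at 23.9 to 90.8, and gave 60.9 and 37.8 in emN1, within the range of the controls. Within sets the brighter probe set was higher in emN1 by 1.54 against anN1 in the first, and by 1.38 against anN1 and 1.30 against wild-type in the second. Against anN1 alone both bright probe sets passed (1.46 and 2.01, limma adjusted p = 0.0274 and 0.0468). Against wild-type alone the dimmer passed (2.35, adjusted p = 0.0382) and the brighter, at 1.34, did not (0.0511). With emN1 replicate 2 left out neither passed against all controls (adjusted p = 0.134 and 0.219), and the brighter also failed with emN1 replicate 1 (0.108) or anN1 replicate 1 (0.0970) left out. Without the intensity trend both failed (0.0722 and 0.0579).

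Cxcl14, an epithelial chemokine with antimicrobial activity, rose on 1 of its 2 probe sets. The brighter gave 30735 and 10720 in emN1, 13712 and 6242 in anN1, and 5918 and 7901 in wild-type. These signals split by array set: the first set gave the higher signals in both groups it holds, and anN1 replicate 1 lay above emN1 replicate 2. Within each set the emN1 array was the highest, by 1.16 against anN1 in the first, and by 0.78 against anN1 and 0.65 against wild-type in the second. With the set as a term it rose by 0.88 log2 units (SE 0.16, limma adjusted p = 0.0197). Against anN1 alone it passed (0.97, adjusted p = 0.0382) and against wild-type alone it did not (0.74, 0.120). The dimmer, of a kind that matches several transcripts of 1 gene, gave 2691 and 6553 in emN1, 3028 and 3754 in anN1, and 4465 and 5825 in wild-type bulbs. On it the first set gave the lower signals, the groups overlapped, and the difference of 0.24 (SE 0.21) did not pass (limma adjusted p = 0.659). Its emN1 array was lower than anN1 by 0.17 in the first set and higher by 0.80 in the second, and the 2 probe sets correlated at r = -0.57 over the 6 arrays. The part of the RNA quality difference between the sets in this disagreement was not tested. The brighter probe set no longer passed without the set term (1.19, adjusted p = 0.385), with emN1 replicate 2 (0.122), anN1 replicate 1 (0.192) or emN1 replicate 1 (0.20) left out, with each array centred on its median (0.0566) and without the intensity trend (0.151). With the kept probe sets averaged, Cxcl14 also did not pass (0.56, SE 0.15, limma adjusted p = 0.0650), while Ccl8 and Cxcl12 did.

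**Figure D2:**
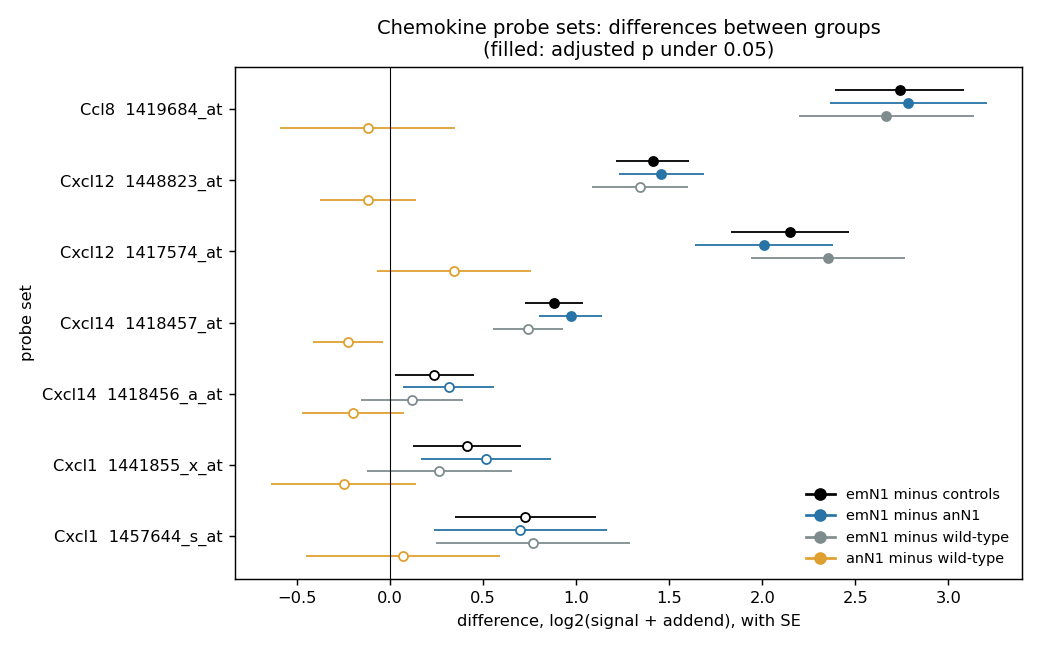
Differences between groups on the log2(signal + addend) scale for the 7 tested chemokine probe sets, as the fitted value with its SE; filled points passed at an adjusted p under 0.05. Against all controls together the emN1 differences of Ccl8 (2.74) and of the 2 Cxcl12 probe sets (1.41 and 2.15) passed. Against wild-type alone the brighter Cxcl12 probe set (1.34) did not pass. The Cxcl14 probe sets disagree (0.88 and 0.24 against all controls), and no difference between anN1 and wild-type passed.

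Cxcl1, a neutrophil attractant of the growth-related oncogene type, has 3 probe sets, of which 2 are of kinds whose probes can match other sequences. On the brighter of these 2 the signals were 585 and 364 in emN1, 458 and 219 in anN1, and 314 and 252 in wild-type bulbs. On the dimmer they were 528 and 330 in emN1, 411 and 150 in anN1 and, in the wild-type, 114 and 230. The anN1 array of the first set lay among the emN1 values in both cases, so the groups overlapped. The differences of Cxcl1, 0.41 (SE 0.29) and 0.73 (SE 0.38), did not pass (limma adjusted p = 0.549 and 0.400). The remaining probe set was too dim to test: 113 and 209 in emN1, 97.9 and 148 in anN1, and 60.1 and 45.9 in wild-type, where both arrays were under background. Neutrophil markers, of the cells Cxcl1 attracts, had 0 calls among 3 tested between emN1 and controls in limma (0 at an unadjusted p under 0.05). Against wild-type alone 1 of them, S100a8, was higher in emN1 (1.64, limma adjusted p = 0.0458), and between anN1 and wild-type it differed by 1.76 without passing (0.289). Their summed signal over 8 genes was 3501 and 4488 in emN1, 5515 and 2973 in anN1 and 1273 and 1762 in wild-type bulbs.

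Cxcl10, which attracts T cells through Cxcr3 and is induced by interferon, gave 213 and 202 in emN1, 19.5 and 102 in anN1, and 196 and 12.1 in wild-type. Both emN1 arrays were the highest, but wild-type replicate 1 lay close below them, and the controls ran from background to nearly the emN1 level. Without the filter Cxcl10 differed by 1.81 (SE 0.83) and did not pass (limma adjusted p = 0.417). Ccl20, an attractant of Ccr6-bearing cells that keratinocytes release when stimulated, was under background on all 6 arrays, at 8.63 to 37.9, so it was not above background in any group. Over all 13 probe sets of the 8 chemokines, 4 had both emN1 arrays above all controls and 0 had both below. Among all 45037 probe sets that are not controls of the array these shares were 9.28% and 8.09%.

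No tested chemokine passed between the 2 kinds of control: 0 of 7 probe sets passed between anN1 and wild-type in limma, and 0 of the 4 genes had an unadjusted p under 0.05. The differences of the brightest probe sets were -0.12 for Ccl8 (SE 0.47), -0.12 for Cxcl12 (SE 0.26), -0.23 for Cxcl14 (SE 0.19) and -0.25 for Cxcl1 (SE 0.39). These SEs leave room for differences of that order either way. Across the array 0.127% of genes and 0.074% of probe sets passed in this comparison. An unadjusted limma p under 0.05 was reached by 602 of 12611 genes, so 0 among 4 genes says little.

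Among other chemokine ligands, 8 of the 26 on the array were bright enough to test. Of these, 1 was higher in emN1, 0 were lower and 7 did not pass, with a median log2 difference of 0.42. The gene that rose was Pf4, a CXC chemokine of platelets that macrophages also make. Pf4 gave 1263 and 1461 in emN1, 328 and 286 in anN1 and, in the wild-type, 388 and 369. The emN1 and control ranges were far apart, and Pf4 rose by 1.97 (SE 0.25, limma adjusted p = 0.00530). It failed with anN1 replicate 1 (0.0558), emN1 replicate 1 (0.0704) or emN1 replicate 2 (0.139) left out, and without the intensity trend (0.0521). By gene order Pf4 lies near Cxcl1 in a run of chemokine genes on chromosome 5.

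Of the chemokine receptors, 6 of 21 on the array were bright enough to test and 0 passed in limma, with 0 at an unadjusted p under 0.05 and a median difference of 0.28. Ackr3, the scavenger receptor of Cxcl12, gave 4013 and 3107 in emN1 against 2595 to 3770 in controls and differed by 0.15 (SE 0.18). The signalling receptor Cxcr4 was dim, at 256 and 174 in emN1 against 99.9 to 279 in controls (log2 difference 0.41, SE 0.47). By the rule for naming, the receptors with the smallest p were Ackr1, which binds inflammatory chemokines on vessels (0.63, SE 0.34), and Ackr4, a scavenger (0.48, SE 0.34). The groups overlapped for Ackr3 and Cxcr4. Transcripts of Cxcr2, the receptor of Cxcl1, were under background on all arrays, at 8.04 to 36.4.

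**Figure D3:**
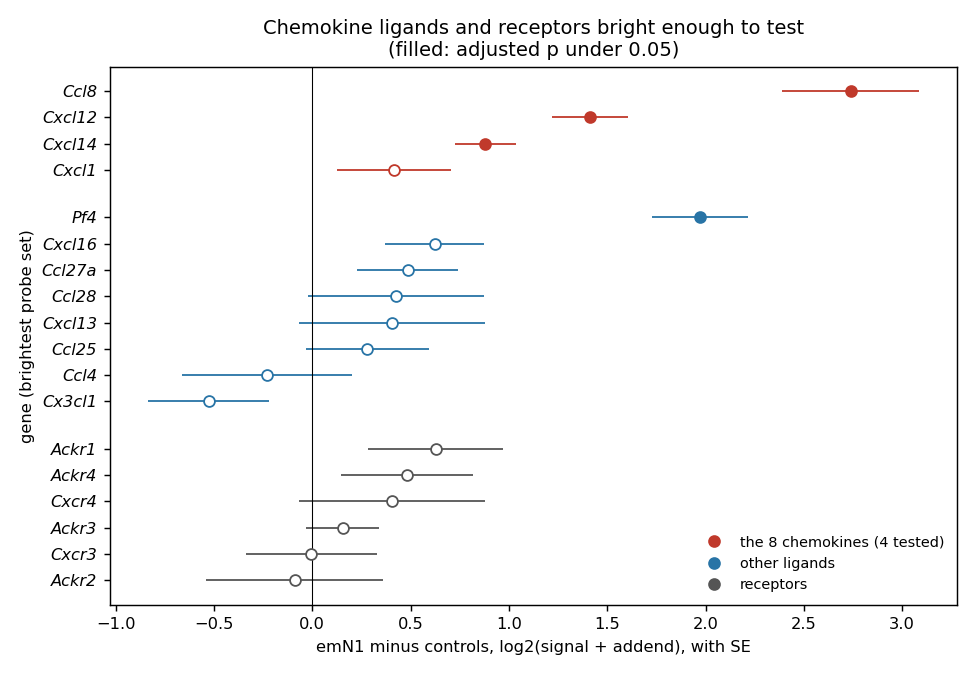
Difference between emN1 and controls on the log2(signal + addend) scale, with its SE, for the brightest probe set of each testable chemokine ligand and receptor; filled points passed at an adjusted p under 0.05. Ccl8, Cxcl12, Cxcl14 and Pf4 are filled, and the 6 receptors lie between -0.09 and 0.63 with none filled.

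Genes of 2 signalling routes that induce chemokines were counted the same way, and the difference between the lists was not tested. Of all 12611 genes tested, 2612 had an unadjusted p under 0.05 in limma. In a list of NF-kappaB and inflammatory cytokine genes, 3 of 13 tested genes were higher in emN1 and 10 did not pass (5 at an unadjusted p under 0.05, median 0.40). Icam1, an adhesion molecule, gave 1810 and 2079 in emN1 against 642 to 795 in controls and rose by 1.49 (SE 0.19, limma adjusted p = 0.00525). Relb, an NF-kappaB subunit, rose by 1.92 (SE 0.36) and Nfkbia, the inhibitor that NF-kappaB induces, by 0.52 (SE 0.10). With emN1 replicate 1, emN1 replicate 2 or anN1 replicate 1 left out the list had 0 calls, as it had without the intensity trend, and without the set term it had 1. Of 12 tested interferon response genes 0 passed in limma (4 at an unadjusted p under 0.05), with a median of 0.14. The 2 with the smallest p pointed in opposite directions, Psmb8 of the immunoproteasome at 1.47 (SE 0.42) and Ifit3 at -1.37 (SE 0.39). Psmb8 was dim in controls (57.8 to 140), and its emN1 signals of 408 and 232 helped it into the test.

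Some markers of macrophages and fibroblasts were higher in the emN1 arrays in which Ccl8, Cxcl12 and Pf4 were higher. Of 11 tested macrophage markers 5 were higher in emN1 and 6 did not pass (median 1.70). Their summed signal over 14 genes was 9493 and 11898 in emN1 against 2428 to 2697 in the 4 controls, and no marker was under background on every array. Csf1r, the growth factor receptor of macrophages, rose by 2.72 (SE 0.24) on its brightest probe set (1 of its 3 gave 0.13 and did not pass) and Mrc1, the mannose receptor, by 2.42 (SE 0.36). The macrophage list had 0 calls with emN1 replicate 2 left out and 2 with emN1 replicate 1 or anN1 replicate 1 left out. Its tested genes C1qb (519 and 1134 in emN1, 20.5 to 234 in controls) and Fcgr3 (505 and 386, 21.6 to 199) were dim in controls. Their emN1 signals helped them into the test, which can raise the list's count and median. Of 9 tested fibroblast markers 3 rose and 6 did not pass (median 0.87). Col1a2, a collagen gene, rose by 1.40 (SE 0.24), while the emN1 mean signal of Dcn was 1.03 times that of controls and that of Fbln1 1.01 times, and the summed signal was 98075 and 118250 in emN1 against 64130 to 85049. With any 1 of these 3 arrays left out the fibroblast list had 0 calls. The part of these cell types in the chemokine differences was not tested.

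Of 9 tested markers of basal keratinocytes and the outer root sheath 5 rose and 1 fell, with summed signals of 145680 and 164590 in emN1 against 97390 to 112430. That list had 0 calls with emN1 replicate 2 left out, and 2 and 3 higher with emN1 replicate 1 and anN1 replicate 1 left out. Calls were fewer in the other lists. In the Langerhans and dendritic cell list 1 of 5 tested genes, H2-Aa, rose (2.43) on its brightest probe set, while another that was tested had an emN1 mean 0.802 times that of controls. The brightest gave 585 and 705 in emN1 against 53.3 to 184 in controls, so its emN1 signals helped it into the test. The H2-Aa call was lost without the filter (limma adjusted p = 0.0540), without the set term (0.0528), without the intensity trend (0.0982) or with emN1 replicate 1 (0.190), emN1 replicate 2 (0.303) or anN1 replicate 1 (0.170) left out, and Cd207, which defines Langerhans cells, was under background on all arrays. In the T cell list 1 of 3 tested genes rose, Thy1 (1.51), which fibroblasts also carry, and Cd3d, Cd3g and Cd4 were under background throughout. Mast cell markers (3 tested, 2 at an unadjusted p under 0.05) and endothelial markers (5 tested, 0 at that p) had 0 calls in limma. Among hair matrix genes 1 of 11 rose and among dermal papilla genes 1 of 8 rose and 1 fell. Neither rise was called without the filter, without the set term, with median centring, without the intensity trend or with any 1 array left out, and the dermal papilla rise was not called with an addend of 1. The dermal papilla fall was not called without the set term, without the intensity trend, or with emN1 replicate 1, emN1 replicate 2 or anN1 replicate 1 left out.

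**Figure D4:**
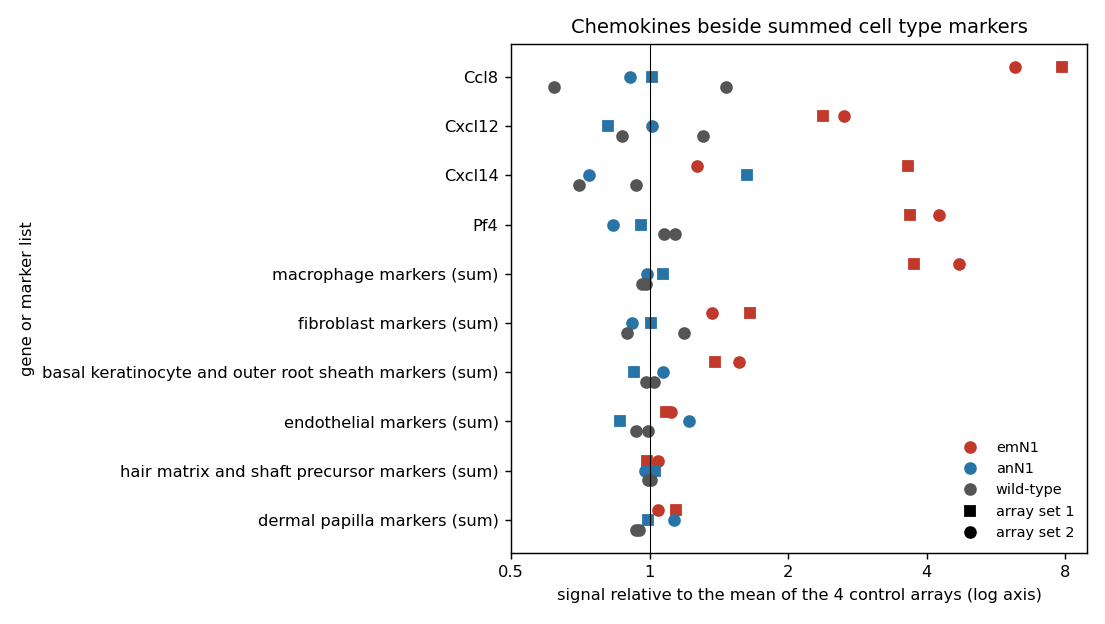
Signal on each array relative to the mean of the 4 control arrays (log axis) for 4 chemokines and for the summed signal of 6 marker lists. In emN1 (red) Ccl8 stands at 6.24 and 7.88, Cxcl12 at 2.38 and 2.65, Pf4 at 3.69 and 4.26 and the macrophage sum at 3.76 and 4.71. Cxcl14 stands at 3.64 and 1.27 in emN1 and overlaps the controls, with anN1 replicate 1 at 1.62. The hair matrix sum, which includes bright genes of the inner root sheath, is at 0.988 and 1.04 in emN1.

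The tested chemokines were also set against all other tested genes by the Pearson correlation of log2 signal over the 6 arrays, as a description. The arrays share group and set, and over so few points many genes correlate closely. Closest to Cxcl12 among 12607 genes were Ccn4, a matricellular protein (r = 0.997), and Apbb2 (0.995). Closest to Ccl8 were Ampd3, an AMP deaminase (0.996), and Prrx2, a homeobox factor of mesenchyme (0.992). Ccn4 rose in emN1 by 1.35 and Ampd3 by 1.00 log2 units (limma adjusted p = 0.0232 and 0.0170), and Apbb2 (0.70) and Prrx2 (1.26) did not pass. Closest to Cxcl14 were Cst3, a protease inhibitor (0.996), and Anks3 (0.993), and closest to Cxcl1 were Fam189b (0.995) and Wdr24 (0.994), none of which passed. Cst3 gave 28020 and 17485 in the first set and 10027 to 13783 in the second, the same split by array set as the brighter Cxcl14 probe set. Between the chemokines themselves Ccl8 correlated with the 2 Cxcl12 probe sets at 0.84 and 0.94.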

How the data were processed

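Group and replicate came from sample titles and array set from the design text. The deposited values are a signal intensity per probe set, made by the authors with MAS5, per the submitters' processing notes (no version or setting was found there). These values had an equal trimmed mean (2% off each end) and they were not rescaled. Of 45101 probe sets 64 were controls. Genes were named from the platform annotation (34958 probe sets with 1 symbol, 932 with several, 9211 with none).

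The working scale was log2(signal + 17.8), where 17.8 is the signal that 10% of all values lie under. The brightest 60% of probe sets by mean log2 signal entered the tests (27022, of 12611 genes). These were run in R 4.3.3 with limma 3.58.1 (lmFit, eBayes with an intensity trend), two-sided, Benjamini-Hochberg adjusted over kept probe sets, threshold 0.05, with array set as a term: emN1 against 4 controls (3 residual degrees of freedom) and a fit with 3 groups (2). A gene was represented by its brightest kept probe set. The number of arrays limits precision. The fits were first run on simulated data whose variances were drawn from the fitted variance model. Such a run cannot check that model or its intensity trend.

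The design text puts replicate 1 of emN1 and anN1 in the first set and replicate 2 in the second, so these numbers pair samples. Their differences between replicates 1 and 2 correlated at r = 0.38 across 27022 probe sets, against -0.19 and -0.02 for pairs with wild-type, whose numbers mark no set.

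All probe sets of the 8 chemokines are given. From other lists (chemokine ligands and receptors, NF-kappaB and interferon genes, cell type markers) up to 4 genes past the threshold, or the 2 with the smallest p, could be named, and for each tested chemokine the 2 most correlated genes. Ccl2's neighbour Ccl12, Ackr3, Cxcr4, Cxcr2, Dcn, Fbln1, C1qb, Fcgr3, S100a8, Krt35, Krt71, Tchh, Lef1, Cd207 and the T cell genes were named outside that rule after their values were seen. The 8 chemokines and the lists were chosen with earlier results of these data known.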

Additional observations from a re-analysis of the deposited data

Results flagged for a closer look

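A control probe set of the array for Cre, the recombinase that deletes marked genes, is outside the gene measurements. It gave 394.69 to 515 signal units in the 4 emN1 and anN1 arrays against 62.4 and 79.0 in wild-type, which lie under the background limit of 84.3. The other Cre control probe sets were also higher in these 4 arrays than in wild-type, but 1 was dim. It gave 71.1 and 101 in emN1 and 11.4 and 27.4 in anN1, against 3.12 and 4.25 in wild-type. The source of these signals was not tested.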

How the results depend on the processing

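In all 14 alternatives, the leave-outs included, the direction against controls was the same for Ccl8 (2.59 to 2.92), both bright Cxcl12 probe sets (1.33 to 1.54 and 1.51 to 2.57) and the brighter Cxcl14 probe set (0.69 to 1.19). Probe sets called were 1020 between emN1 and controls, 545 between emN1 and anN1, 584 between emN1 and wild-type and 20 between anN1 and wild-type. Without the replicate block (array set) the first 3 counts were 286, 42 and 215, and 2 of the 8 chemokines were called in place of 3. In that fit Ccl8 also missed the threshold against anN1 alone (adjusted p = 0.0747), the dimmer Cxcl14 probe set was at -0.28 against wild-type, and anN1 minus wild-type was 0.44 for the brighter Cxcl14 probe set, 0.00083 for Ccl8 and 0.17 for the brighter Cxcl1 probe set. Without the intensity trend 0 probe sets passed in any comparison, 0 chemokines and 0 other ligands (limma; 4044 probe sets at an unadjusted p under 0.05 between emN1 and controls; smallest adjusted p 0.0521). Quantile normalization and median centring put the dimmer Cxcl1 probe set at -0.0198 and -0.0206 between anN1 and wild-type, and centring gave 42 calls there. With a gene's probe sets averaged 2 other ligands were called. With 1 array left out, calls ranged from 1 to 1092, 0 to 1269, 0 to 1375 and 0 to 173 in the 4 comparisons, from 0 to 3 among the 8 chemokines and from 0 to 1 among other ligands; the count of 1 came without emN1 replicate 2. The dimmer Cxcl14 probe set then ranged from -0.17 to 0.51 against controls, -0.17 to 0.80 against anN1, -0.61 to 0.36 against wild-type and -0.44 to 0.53 between anN1 and wild-type. Between the controls Ccl8 ranged from -0.70 to 0.46, Cxcl1 from -0.40 to 0.0119 and -0.39 to 0.60, and brighter Cxcl12 from -0.40 to 0.17. The causes were not tested. Raising dim signals to a background limit of 112, from 20 bacterial control probe sets, was added after seeing the data and gave 1135 calls. The signals of Cxcl10, Ccl2, Ccl7 and Ccl20 over background limit what can be said of them.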

Other observations

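Some dim genes fell outside the tests because their control signals were near background, and these were picked after their values were seen. Ptgs2, the inducible cyclooxygenase that makes prostaglandins, gave 1584 and 2175 in emN1 on its brighter probe set and 9.35 to 27.9 in the 4 controls, all under the background limit of 84.3. With the controls raised to that limit, Ptgs2 was 22-fold higher in emN1 by the mean log2 signal. The limit of 112 from 20 bacterial control probe sets would give a smaller fold. Ptgs2 passed when fitted without the filter (limma adjusted p = 0.00146). The second probe set of Ptgs2 gave 196 and 147 against 45.2 to 119 and did not pass (adjusted p = 0.595).

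The macrophage chemokines Ccl6 and Ccl9 were also bright in emN1 on their brighter probe sets, with some controls above background. Ccl6 gave 359 and 655 in emN1 on its brighter probe set against 172 in anN1 replicate 1 and 25.4 to 45.7 in the other controls. Its second probe set gave 115 and 389 in emN1 against 50.7 to 139, so the groups overlapped. Ccl9 gave 464 and 287 against 11.7 to 132, and 110 and 124 on its second probe set against 39.2 to 87.9. Neither passed in limma without the filter (adjusted p = 0.103 for Ccl6 and 0.179 for Ccl9). The brightest Ccr2 probe set, for the receptor of Ccl2 and Ccl7 on monocytes, gave 274 and 242 in emN1 against 11.8 to 126 in controls (adjusted p = 0.183). Its other probe sets were dimmer. They gave 134 and 131 in emN1 against 26.2 to 103, 73.8 and 73.1 against 28.8 to 116, and 35.2 and 69.9 against 1.21 to 11.3. On the middle of these the groups overlapped, and the last was under background on all arrays. Cxcl16, a ligand on macrophages and epithelium, gave 809 and 418 in emN1 against 162 to 189 in controls on its dimmer probe set, and missed the threshold among the tested probe sets (1.55, adjusted p = 0.0506). Its brighter probe set gave 742 and 618 against 321 to 562.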
